A study of Mus musculus with 18 samples.

Results

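The genes described here encode the glucose transporters and enzymes of glycolysis and a group of transcripts known to rise when oxygen is scarce. The set holds 40 listed genes, 19 for glucose import and glycolysis and 21 for the wider response to low oxygen. A gene was measured where the platform annotation gave a probe set its symbol alone, which held for 37 of the 40, out of 19938 genes named in this way. Gpi1, Gapdh and Eno1 had no such probe set and were not analysed here. For the 8 measured genes with several probe sets, the brightest was taken, by its mean over the 18 arrays. That mean is the only measured value in the rule, and it is not tested. The genes were also proposed with results of these arrays known, so their counts below describe the set and are not independent evidence of its direction.

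Total RNA of mouse stem cells was hybridised to Affymetrix arrays (Mouse Gene 1.0 ST). Each gene is read there by several short probes summed up as a probe set. The 18 arrays form 6 groups of 3 biological replicates. Undifferentiated embryonic stem cells (ES cells, "Embryonal" in the labels) and undifferentiated adult stem cells were each sampled in the 129SV background and in Stra8-EGFP/Rosa26, shortened to Stra8 below. Differentiated ES cells and differentiated adult cells were sampled in the 129SV background. The series title calls the adult cells multipotent germline stem cells. EGFP is a green fluorescent protein, Stra8 a germ cell gene and Rosa26 a locus often used to carry transgenes. The oxygen tension, the medium, a feeder layer, the number of lines and the way the cells were differentiated are not given in the sources used here. All values are log2 signals, so a difference of 1 is a factor of 2, and levels are compared within a gene, never between genes.

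Glycolysis splits glucose into pyruvate, and lactate dehydrogenase turns pyruvate into lactate when it is not burnt in mitochondria. Pluripotent stem cells in culture lean on this route even with oxygen present. In the oxygen response, prolyl hydroxylases of the Egln family mark the HIF alpha subunits while oxygen is plentiful, and the Vhl ligase then has them destroyed. When oxygen falls, the alpha subunits escape, pair with Arnt and bind a short DNA core, the hypoxia response element, near genes for glucose uptake, glycolysis, blood vessel growth and mitochondrial turnover.

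The arrays of a group resembled each other closely, with a mean correlation to the rest of the group of 0.992 to 0.998. The third differentiated ES array had the lowest, together with the lowest array weight of 0.153. Summed linear signals of 8 pluripotency markers lay between 29816 and 38532 on the 12 undifferentiated arrays and between 8080 and 11589 on the 6 differentiated ones. The 10 fibroblast markers, listed because fibroblasts often serve as feeder layers, were not spread evenly. Their summed signal was 36897 to 37421 on the ES 129SV arrays, 19490 to 19895 in adult 129SV, 13915 to 14513 in ES Stra8 and 24654 to 25202 in adult Stra8 cells. It was 7974 to 8387 in differentiated ES and 16103 to 16908 in differentiated adult cells. In such bulk RNA, fewer cells of a type and less RNA per cell cannot be told apart.

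Promoter windows are shown for 5 members that fell strongly from ES 129SV cells to both adult 129SV and ES Stra8 cells, so that the response element core can be read in place. They are Adm (adrenomedullin, a vessel-dilating peptide), Pfkfb3 (which makes fructose 2,6-bisphosphate, an activator of glycolysis), P4ha1 and P4ha2 (collagen prolyl hydroxylases) and Bnip3 (a receptor for the removal of mitochondria). Each window runs 5′ to 3′ from 250 bases before to 50 after the annotated start, from RefSeq on build GRCm38.p6. Capitals mark ACGTG or GCGTG, or CACGT or CACGC where the core lies on the other strand.
Adm, chr7:110627407-110627706, plus strand: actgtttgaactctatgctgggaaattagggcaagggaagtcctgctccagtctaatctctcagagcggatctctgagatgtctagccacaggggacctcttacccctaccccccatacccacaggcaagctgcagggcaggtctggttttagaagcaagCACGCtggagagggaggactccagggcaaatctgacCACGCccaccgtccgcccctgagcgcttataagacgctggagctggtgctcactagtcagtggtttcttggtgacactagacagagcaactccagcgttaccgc
Pfkfb3, chr2:11553880-11554179, minus strand: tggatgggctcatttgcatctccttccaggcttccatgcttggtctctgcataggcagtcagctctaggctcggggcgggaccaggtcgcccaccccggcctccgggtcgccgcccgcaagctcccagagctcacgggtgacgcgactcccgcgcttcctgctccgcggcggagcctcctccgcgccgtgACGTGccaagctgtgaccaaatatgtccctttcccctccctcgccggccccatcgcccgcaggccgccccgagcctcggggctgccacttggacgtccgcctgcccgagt
P4ha2, chr11:54100674-54100973, plus strand: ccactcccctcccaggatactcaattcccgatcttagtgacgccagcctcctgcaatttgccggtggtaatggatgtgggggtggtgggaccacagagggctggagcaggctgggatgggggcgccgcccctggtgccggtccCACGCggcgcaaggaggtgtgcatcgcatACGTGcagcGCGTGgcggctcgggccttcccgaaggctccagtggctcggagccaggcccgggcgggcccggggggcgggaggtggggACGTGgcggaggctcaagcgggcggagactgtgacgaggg
Bnip3, chr7:138909457-138909756, minus strand: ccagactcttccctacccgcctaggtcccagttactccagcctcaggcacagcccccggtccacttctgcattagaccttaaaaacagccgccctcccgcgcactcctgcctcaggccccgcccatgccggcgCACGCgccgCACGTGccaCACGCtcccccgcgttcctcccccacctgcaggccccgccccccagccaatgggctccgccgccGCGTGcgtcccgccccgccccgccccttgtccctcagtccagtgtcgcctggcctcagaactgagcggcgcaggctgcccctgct
P4ha1, chr10:59323046-59323345, plus strand: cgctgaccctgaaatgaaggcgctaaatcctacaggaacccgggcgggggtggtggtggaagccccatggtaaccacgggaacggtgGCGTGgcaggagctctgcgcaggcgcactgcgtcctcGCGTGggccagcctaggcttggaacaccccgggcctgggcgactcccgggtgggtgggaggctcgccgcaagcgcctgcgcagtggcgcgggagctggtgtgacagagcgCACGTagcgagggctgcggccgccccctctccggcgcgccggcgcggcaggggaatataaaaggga
The Adm window held 2 cores, 90 and 54 bases before the start. The Pfkfb3 window held 1, at 60 bases before the start. P4ha2 had 4, at 107, 78 and 69 bases before and 11 bases after the start, and P4ha1 had 3, at 163, 126 and 16 bases before it. The Bnip3 window held 5, at 117, 108, 107, 99 and 35 bases before the start, where the palindrome CACGTG counts once on each strand. RefSeq windows were at hand for 32 members, and 26 of them (81.2%) held a core, against 11836 of 27025 windows of all genes (43.8%). The members' windows were also richer in CG dinucleotides, with a median of 24.5 against 7. Among windows with 16 to 30 CG dinucleotides, a core was present in 17 of 20 members (85.0%) and in 4401 of 6271 genes (70.2%). These matches describe letters in a window, and no binding was measured.

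The members varied more over the groups than most genes, and the ES 129SV cells stood out. The difference between the highest and the lowest group mean had a median of 1.82 over the 37 members and 0.62 over all genes, and it reached at least 1 in 30 members (81.1%) against 27.6% of all genes. The ES 129SV group had the highest mean in 28 of the 37 members and the lowest in 0. In those 28 members, every ES 129SV array lay above all 15 other arrays, which held for 5.95% of all genes. Against the 9 other undifferentiated arrays alone, the count was 33 members, with 11.0% of all genes. The exceptions were Slc2a3, Hk1, Pfkfb4 and Bhlhe41. The lowest mean fell to ES Stra8 cells in 13 members and to differentiated ES cells in 12.

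**Figure D1:**
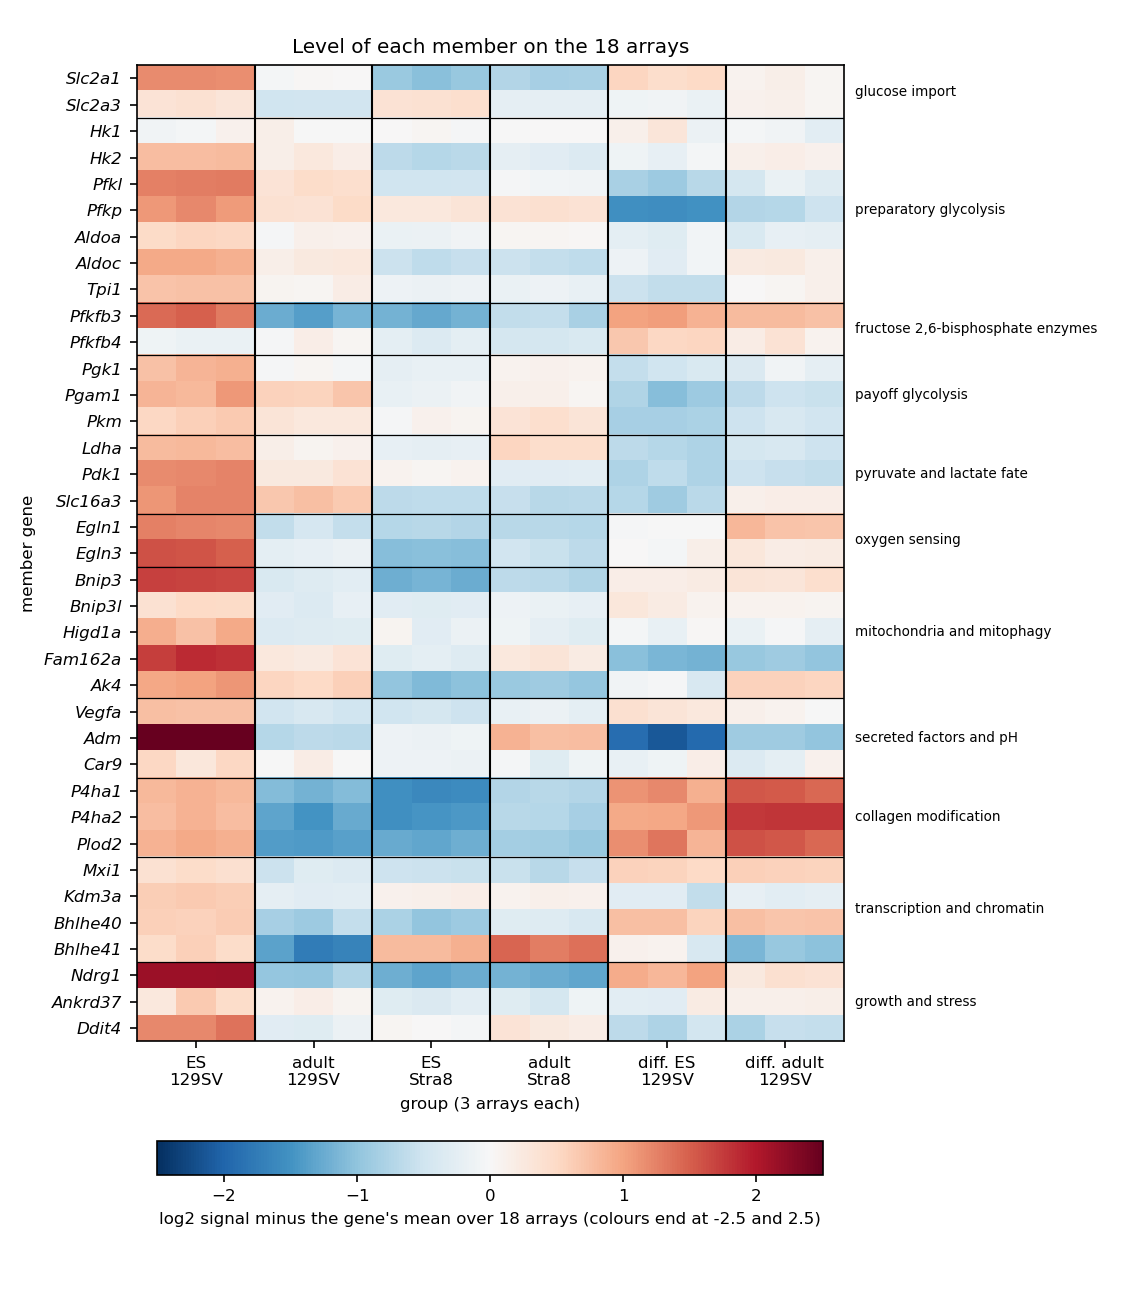
Heat map of the 37 members (rows, grouped by role) on the 18 arrays (columns, 3 per group); colour is the log2 signal minus the gene's mean over the 18 arrays. The 3 ES 129SV columns are the reddest in 28 of the 37 members, while the collagen enzymes P4ha1, P4ha2 and Plod2 are also red in both differentiated groups.

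Of the glucose transporters, Slc2a1 (GLUT1) was highest in ES 129SV cells, at 13.22, 13.21 and 13.18 on the 3 arrays. It read 11.98, 12.06 and 12.03 in adult 129SV cells, 11.10, 10.99 and 11.08 in ES Stra8, and 11.29, 11.19 and 11.22 in adult Stra8 cells. Differentiated ES cells gave 12.56, 12.47 and 12.52, and differentiated adult cells 12.12, 12.18 and 12.08. No ES 129SV array overlapped any other group, and both Stra8 groups lay below every 129SV array. Slc2a3 (GLUT3), the high-affinity transporter, was ordered otherwise. It read 13.08, 13.12 and 13.04 in ES 129SV and 13.11, 13.12 and 13.17 in ES Stra8 cells, which overlapped, against 12.24, 12.27 and 12.26 in adult 129SV and 12.51, 12.51 and 12.52 in adult Stra8 cells. Its differentiated arrays lay between, at 12.64, 12.65 and 12.58 for ES and 12.84, 12.87 and 12.79 for adult cells.

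Among the enzymes, Hk2 (hexokinase 2, which traps glucose in the cell) read 11.72, 11.72 and 11.74 in ES 129SV and 10.30, 10.23 and 10.27 in ES Stra8 cells. The other 4 groups had Hk2 means of 11.14 in adult 129SV, 10.66 in adult Stra8, 10.83 in differentiated ES and 11.07 in differentiated adult cells. Pfkfb3 had a wider range, with 11.23, 11.31 and 11.11 in ES 129SV against 8.58, 8.45 and 8.66 in adult 129SV cells and 8.63, 8.53 and 8.62 in ES Stra8 cells. The latter groups overlapped, and Pfkfb3 was intermediate in adult Stra8 cells, at 9.20, 9.23 and 9.01. Both differentiated groups came close to the ES 129SV arrays, at 10.82, 10.86 and 10.68 for ES and 10.61, 10.60 and 10.54 for adult cells. Its relative Pfkfb4 had group means from 7.09 to 8.08 and its highest level in differentiated ES cells.

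Ldha (lactate dehydrogenase A) read 13.18, 13.21 and 13.17 in ES 129SV cells, 12.54, 12.47 and 12.51 in adult 129SV cells, 12.19, 12.18 and 12.19 in ES Stra8, and 12.94, 12.83 and 12.84 in adult Stra8 cells. It was lowest after differentiation, at 11.73, 11.68 and 11.62 in ES and 11.95, 11.99 and 11.88 in adult cells. No groups overlapped for Ldha, and within the Stra8 background the adult arrays lay above the ES arrays, the opposite of the 129SV order. Pdk1, the kinase that shuts pyruvate dehydrogenase and keeps pyruvate out of mitochondria, had group means of 10.75 in ES 129SV, 9.84 in adult 129SV, 9.62 in ES Stra8, 9.28 in adult Stra8, 8.82 in differentiated ES and 8.98 in differentiated adult cells. Slc16a3 (MCT4), the lactate exporter, was high in both undifferentiated 129SV groups, with means of 11.30 and 10.80, and low in both Stra8 groups, with 9.46 and 9.45.

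The oxygen sensors Egln1 (PHD2) and Egln3 (PHD3) are themselves raised by HIF. Egln3 read 10.90, 10.87 and 10.81 in ES 129SV cells, 9.07, 9.11 and 9.15 in adult 129SV cells, 8.25, 8.26 and 8.24 in ES Stra8, and 8.83, 8.74 and 8.65 in adult Stra8 cells. Differentiated ES cells gave 9.32, 9.26 and 9.45 and differentiated adult cells 9.59, 9.49 and 9.51. The 6 groups did not overlap. Egln1 read 11.18, 11.14 and 11.11 in ES 129SV cells and 9.30, 9.51 and 9.32 in adult 129SV cells. Its Stra8 arrays lay between 9.18 and 9.23 in both cell types and overlapped, while the differentiated means were 9.90 in ES and 10.66 in adult cells.

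Bnip3 read 12.54, 12.52 and 12.49 in ES 129SV cells, 10.44, 10.50 and 10.56 in adult 129SV cells, 9.61, 9.65 and 9.59 in ES Stra8, and 10.17, 10.15 and 10.07 in adult Stra8 cells. Its differentiated arrays read 10.99, 10.99 and 11.02 in ES and 11.14, 11.13 and 11.24 in adult cells. All 6 groups were apart. Bnip3l, its close relative in the removal of mitochondria, varied much less, with group means from 11.37 to 12.11. Fam162a, a hypoxia-induced mitochondrial protein, fell from a mean of 11.88 in ES 129SV cells to 8.95 in differentiated ES cells.

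The widest member was Adm. It read 12.33, 12.47 and 12.40 in ES 129SV cells, 8.76, 8.84 and 8.82 in adult 129SV cells, 9.36, 9.34 and 9.38 in ES Stra8, and 10.35, 10.23 and 10.24 in adult Stra8 cells. After differentiation it read 7.58, 7.37 and 7.53 in ES and 8.58, 8.60 and 8.50 in adult cells, with no overlap between groups. Vegfa, the vascular growth factor, read 11.50, 11.47 and 11.48 in ES 129SV cells, had means between 10.26 and 10.55 in the other undifferentiated groups, and 11.07 and 10.81 in differentiated ES and adult cells. Car9, the cell surface carbonic anhydrase often used as a hypoxia marker, had group means from 5.89 to 6.49, while the median probe set of an array read 7.22 to 7.38.

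Ndrg1, a stress-induced differentiation gene, read 12.20, 12.20 and 12.23 in ES 129SV cells, 9.09, 9.07 and 9.32 in adult 129SV cells, 8.84, 8.74 and 8.83 in ES Stra8, and 8.89, 8.82 and 8.77 in adult Stra8 cells. It stood at 11.00, 10.90 and 11.07 in differentiated ES and 10.32, 10.47 and 10.42 in differentiated adult cells. The adult 129SV arrays lay above both Stra8 groups, which overlapped. Ddit4 (REDD1), a brake on mTOR signalling, had its highest mean, 10.70, in ES 129SV cells and its lowest, 8.80 and 8.82, in the differentiated groups.

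The collagen enzymes P4ha1, P4ha2 and Plod2, which hydroxylate proline and lysine in collagen, were high in ES 129SV and in differentiated cells alike. Fibroblasts and parietal endoderm, which secrete much collagen, are also known to use these enzymes. P4ha1 read 11.51, 11.57 and 11.51 in ES 129SV cells, 9.61, 9.51 and 9.61 in adult 129SV cells and 9.17, 9.08 and 9.13 in ES Stra8 cells, and it had a mean of 9.97 in adult Stra8 cells. Its differentiated arrays read 11.83, 11.90 and 11.59 in ES and 12.26, 12.22 and 12.13 in adult cells, all above the ES 129SV arrays. Plod2 read 12.27, 12.35 and 12.28 in ES 129SV cells and between 9.98 and 10.03 in adult 129SV cells. It was 12.99, 12.95 and 12.84 in differentiated adult cells, and the differentiated ES arrays, at 12.56, 12.73 and 12.24, overlapped the ES 129SV ones. Bhlhe41 (DEC2), a repressor of transcription, was ordered otherwise. It read 6.84, 6.42 and 6.51 in adult 129SV cells but 9.64, 9.46 and 9.56 in adult Stra8, 8.65, 8.77 and 8.64 in ES 129SV and 8.97, 8.97 and 9.07 in ES Stra8 cells.

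**Figure D2:**
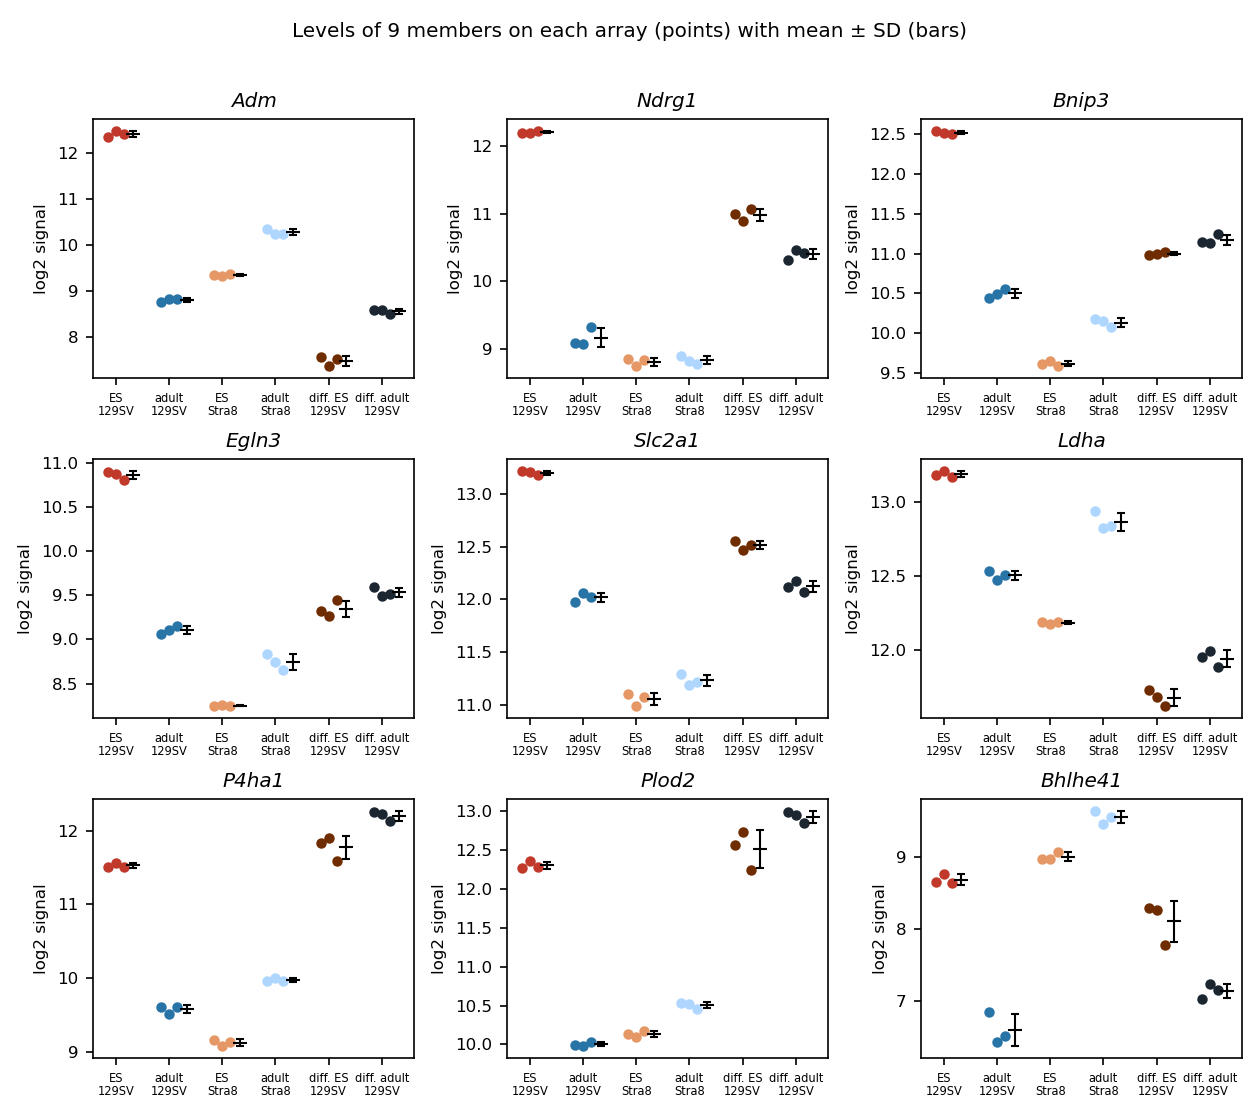
Log2 signal of 9 members by group; points are the 3 arrays of a group and bars the mean with its SD. Adm, Ndrg1, Bnip3, Egln3, Slc2a1 and Ldha are highest in ES 129SV cells, P4ha1 and Plod2 peak in differentiated adult cells at means of 12.20 and 12.93, and Bhlhe41 is lowest in adult 129SV cells at a mean of 6.59.

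The comparison of adult with ES cells addressed how alike the stem cells of these origins are. In the 129SV background, adult cells had lower levels of nearly the whole set. By limma's moderated test with Benjamini-Hochberg adjustment over all 19938 genes, 35 of 37 members were lower and 1 was higher at an adjusted p under 0.05. Over all genes 23.1% were lower and 23.0% higher. The members' median change was -0.87 (all genes 0.06), and 16 members were at least 2-fold lower. The arrays of the groups did not overlap in 35 members lower and 1 higher (26.2% and 30.6% of all genes). Adm fell 12.1-fold (log2 change -3.60 ± 0.06 SE, adjusted p = 1.85e-16) and Ndrg1 8.28-fold (-3.05 ± 0.07, adjusted p = 6.76e-15). Pfkfb3 was 6.28-fold, Plod2 4.91-fold, P4ha2 4.45-fold and Bhlhe41 4.27-fold lower in the adult cells. Bnip3 was 4.05-fold (-2.02 ± 0.05, adjusted p = 2.14e-14), P4ha1 3.87-fold, Egln1 3.41-fold and Egln3 3.37-fold lower. The largest adjusted p among these 10 members was 6.33e-10.

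The glycolytic members had the smaller median change in this comparison. Of the 16 measured for glucose import and glycolysis, 14 fell and 1 rose, with a median of -0.65, and of the other 21 members all fell, with a median of -1.50. Slc2a1 fell 2.26-fold (-1.18 ± 0.05, adjusted p = 1.89e-11), Pgk1 (phosphoglycerate kinase) 1.79-fold, Ldha 1.61-fold (-0.68 ± 0.05, adjusted p = 9.44e-09) and Hk2 1.51-fold. Pdk1 fell 1.88-fold, Vegfa 2.29-fold, Ddit4 2.82-fold and Car9 1.31-fold (adjusted p = 0.00991). Pkm (pyruvate kinase) and Pgam1 (phosphoglycerate mutase) fell by 0.30 and 0.31. The riser was Pfkfb4, by 0.21 ± 0.07 (adjusted p = 0.0254), a call lost without ES 129SV replicate 2 or 3 or adult 129SV replicate 2, which left 0 risers. Hk1 had a change of 0.05 (adjusted p = 0.699) on a probe set that another Hk1 probe set, described last, did not match. Whether it reads Hk1 was not tested. Fibroblast markers fell in 9 of 10 genes (median -1.04), endoderm markers in 6 of 11, pluripotency markers in 2 of 8, and 7 of 7 amino acid stress genes (Atf4 targets) fell too. Their part in the result was not tested.

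In the Stra8 background the adult cells did not have lower levels of the set. There 19 of 37 members were higher in adult than in ES cells, 2 were lower and 16 were not called, against 13.2% and 15.1% of all genes higher and lower. The median change was 0.18 (all genes 0.00), and no member reached a factor of 2. Adm rose by 0.92 ± 0.06 (1.89-fold, adjusted p = 1.92e-08), P4ha1 by 0.85, P4ha2 by 0.73 and Ldha by 0.68 ± 0.05 (1.60-fold, adjusted p = 5.75e-08). Fam162a rose by 0.56, Bhlhe41, Pfkfb3 and Bhlhe40 by 0.55 each, Bnip3 by 0.52, Egln3 by 0.49 and Hk2 by 0.40. Vegfa and Pgk1 rose by 0.29 each, Ddit4 by 0.25 (adjusted p = 0.0318) and Slc2a1 by 0.18 (adjusted p = 0.0152). The 2 that fell were Slc2a3, by 0.62 ± 0.04 (adjusted p = 4.85e-08), and Pdk1, by 0.34 (adjusted p = 1.02e-04). Car9 had a change of -0.01 (adjusted p = 0.958) and Ndrg1 of 0.02 (adjusted p = 0.871). The 10 fibroblast markers rose here (median 0.75), as did 7 of 11 endoderm markers (median 0.49), and 6 of 8 pluripotency markers fell (median -0.36). Their part in the result was not tested. The call of Ddit4 was lost without ES Stra8 replicate 1, 2 or 3 (changes of 0.27, 0.25 and 0.22) or adult Stra8 replicate 1 or 2 (0.20 and 0.25). That of Slc2a1 was lost without ES Stra8 replicate 2 (0.14) or adult Stra8 replicate 1 (0.15).

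The difference between the backgrounds was itself tested. The adult minus ES change was higher in Stra8 than in 129SV cells for 33 of 37 members and lower for 1, against 21.3% and 21.8% of all genes, with a median difference of 1.09 (all genes -0.06). Adm had the widest difference, 4.51 ± 0.09 (adjusted p = 1.45e-15), followed by Pfkfb3 at 3.20, Ndrg1 at 3.07, P4ha2 at 2.89 and P4ha1 at 2.80. Pfkfb4 was the member called the other way, at -0.34 (adjusted p = 0.0101). Hk1, Ankrd37 (an ankyrin repeat protein) and Car9 were not called, with Car9 at 0.37 (adjusted p = 0.0743). Car9 was called with quantile normalisation (0.41, adjusted p = 0.0276), only these groups fitted (adjusted p = 0.0186), array weights (0.32, adjusted p = 0.0424), or without ES 129SV, adult 129SV or adult Stra8 replicate 2 (0.45, 0.44 and 0.45). All 10 fibroblast markers (median 1.75), all 7 amino acid stress genes (0.88) and 7 of 11 endoderm markers (0.84) moved the same way, and 3 of 8 pluripotency markers the other way. Their part was not tested. This test shares the 3 ES 129SV arrays with the 129SV comparison above, the comparison of ES cells between backgrounds and both tests of differentiation that involve ES cells.

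**Figure D3:**
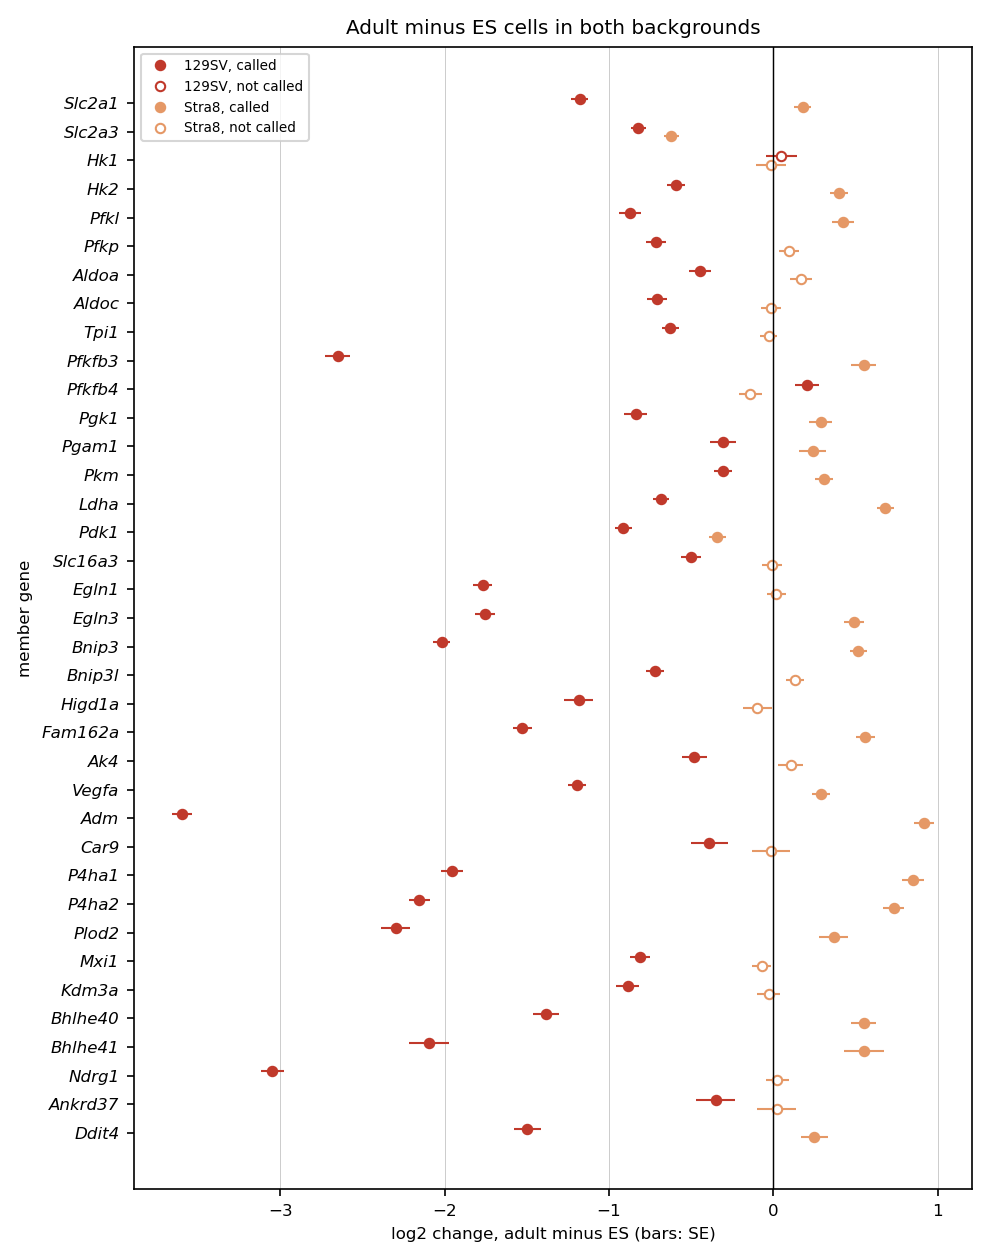
Adult minus ES log2 change of each member in the 129SV (red) and Stra8 (orange) backgrounds; bars are SE, and open points did not pass an adjusted p under 0.05. In 129SV cells the points run from -3.60 for Adm to 0.21 for Pfkfb4, and in Stra8 cells from -0.62 for Slc2a3 to 0.92 for Adm.

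Between the backgrounds, ES cells differed in nearly the whole set. ES Stra8 cells were lower than ES 129SV cells in 33 of 37 members and higher in 1 (20.0% and 21.3% of all genes), with a median of -1.23 (all genes -0.01) and 23 members at least 2-fold lower. Ndrg1 was 10.6-fold lower (-3.41 ± 0.07, adjusted p = 2.78e-15), Adm 8.25-fold and Bnip3 7.47-fold (-2.90 ± 0.05, adjusted p = 1.50e-15). Pfkfb3 was 6.14-fold, Egln3 6.11-fold, P4ha1 5.30-fold, P4ha2 4.86-fold and Plod2 4.48-fold lower. Slc2a1 was lower by 4.42-fold, Fam162a by 4.29-fold, Hk2 by 2.76-fold, Ddit4 by 2.38-fold, Vegfa by 2.34-fold, Pdk1 by 2.20-fold, Pgk1 by 2.03-fold, Ldha by 2.01-fold and Car9 by 1.49-fold, with adjusted p-values of at most 5.65e-04. The riser was Bhlhe41, by 0.32 ± 0.12 (adjusted p = 0.0472), a call lost, leaving 0 risers, when any of these 6 arrays was left out. All 10 fibroblast markers (median -1.33) and 7 of 11 endoderm markers (median -0.39) were lower, 4 of 8 pluripotency markers were higher and 2 lower, and 6 of 7 amino acid stress genes were higher (median 0.49). Their part in the result was not tested.

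In adult cells the same contrast of backgrounds ran both ways. Of 37 members, 12 were higher and 16 lower in Stra8 than in 129SV cells (24.2% and 26.8% of all genes), with a median of -0.03 (all genes -0.08). Bhlhe41 was 7.81-fold higher (2.97 ± 0.12, adjusted p = 1.49e-11) and Adm 2.77-fold higher. Ak4, a mitochondrial adenylate kinase, was 2.78-fold lower and Slc16a3 2.53-fold lower (-1.34 ± 0.06, adjusted p = 3.39e-11). Aldoc (an aldolase) was lower by 0.81, Slc2a1 by 0.79, Pdk1 by 0.56, Hk2 by 0.47, and Bnip3 and Egln3 by 0.37 each. P4ha2 was higher by 0.61, Pfkfb3 by 0.58, Ddit4 by 0.49, Ldha by 0.36 and Vegfa by 0.26. The values for Pgam1 (-0.50) and Plod2 (0.50) were of similar size in opposite directions, and Pgk1 (0.10) and Car9 (-0.20) were not called. Car9 was called lower with array weights (-0.25, adjusted p = 0.0341). The call of Bnip3 was lost with its dimmer probe set (-0.25, adjusted p = 0.0554), a choice made after the values were seen. Fibroblast markers were higher in 5 and lower in 1 of 10, endoderm markers higher in 5 and lower in 1 of 11, and pluripotency markers higher in 2 and lower in 4 of 8. All 7 amino acid stress genes were higher.

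Differentiation of ES cells lowered most of the set. Of 37 members, 30 were lower and 3 higher in differentiated than in undifferentiated ES 129SV cells (27.3% and 27.9% of all genes), with a median of -1.03 (all genes 0.05) and 19 members at least 2-fold lower. Adm fell 30.1-fold (-4.91 ± 0.06, adjusted p = 1.38e-18) and Fam162a 7.61-fold (-2.93 ± 0.06, adjusted p = 3.54e-16). Pfkp and Pfkl, isoforms of phosphofructokinase, fell 6.28-fold and 4.24-fold. Slc16a3 fell 3.88-fold, Pdk1 3.81-fold, Ddit4 3.68-fold and Pgam1 3.53-fold. Bnip3 and Egln3 fell 2.86-fold each, Ldha 2.85-fold, Pgk1 2.49-fold, Hk2 1.86-fold and Slc2a1 1.61-fold. Vegfa fell by 0.41 and Car9 by 0.48 (adjusted p = 0.00168). The risers were Pfkfb4 (0.72 ± 0.07, adjusted p = 1.44e-07), P4ha1 (0.24, adjusted p = 0.00594) and P4ha2 (0.20, adjusted p = 0.0139), while Plod2 (0.21), Mxi1 (0.13), Bhlhe40 (0.09) and Hk1 (0.10) were not called. Fitted on these 6 arrays alone, 1 member was higher, beside 4880 of all 19938 genes. Of the glycolytic members 14 of 16 fell, with a median of -1.20, and of the other 21 members 16 fell and 2 rose, with a median of -0.93.

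All 8 pluripotency markers and all 10 fibroblast markers fell in that comparison, all 11 endoderm and yolk sac markers rose, and 5 of 7 amino acid stress genes fell. Without the third differentiated ES array, 30 members were lower and 4 higher. In the differentiated adult cells, 9 of 11 endoderm markers rose, 8 of 8 pluripotency markers fell, and fibroblast markers fell in 7 and rose in 3 of 10. The part of these markers in either result was not tested.

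In adult cells the set was split between higher and lower levels after differentiation. Of 37 members, 14 rose and 12 fell (27.5% and 32.2% of all genes), and the median was 0.02 (all genes -0.08), so the share that fell was near that of all genes. The risers were led by the collagen enzymes P4ha2 (8.80-fold, 3.14 ± 0.06, adjusted p = 6.04e-16), Plod2 (7.58-fold, 2.92 ± 0.09, adjusted p = 5.85e-14) and P4ha1 (6.17-fold). Pfkfb3 rose 4.06-fold, Bhlhe40 (DEC1, another transcriptional repressor) 2.82-fold, Egln1 2.44-fold and Ndrg1 2.36-fold. Bnip3 rose by 0.67, Vegfa by 0.53 and Egln3 by 0.42. Fam162a fell 2.33-fold, Pgam1 2.27-fold and Pfkp 2.08-fold, and Pdk1 fell by 0.86, Ldha by 0.56, Ddit4 by 0.41 and Pgk1 by 0.21 (adjusted p = 0.0160). Slc2a1 (0.10, adjusted p = 0.102), Hk2 (-0.06, adjusted p = 0.344) and Car9 (-0.20, adjusted p = 0.135) were not called. Slc2a1 was called higher with quantile normalisation (0.20, adjusted p = 0.00464) or a variance trend (adjusted p = 0.0468). Car9 was called lower with quantile normalisation (-0.27, adjusted p = 0.0265) or without differentiated adult replicate 3 (-0.34, adjusted p = 0.0111). The call of Pgk1 was lost without adult 129SV replicate 2 (-0.19) or differentiated adult replicate 1 (-0.15), with quantile normalisation (-0.12), with only these groups fitted (adjusted p = 0.0627) and with array weights (-0.17). By role, 8 of the 16 glycolytic members fell and 2 rose, with a median of -0.19, whereas 12 of the other 21 rose and 4 fell, with a median of 0.42.

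The change on differentiation was higher in adult than in ES cells for 34 of 37 members and lower for 1 when that difference was tested (24.2% and 21.5% of all genes), with a median difference of 1.11 (all genes -0.08). Adm differed by 4.67 ± 0.09 (adjusted p = 2.16e-15), P4ha2 by 2.94, Plod2 by 2.71, Egln1 by 2.53 and Ndrg1 by 2.47. Pfkfb4 differed by -0.58 (adjusted p = 1.84e-04), and Hk1 and Car9 were not called. Car9 was called with array weights (0.36, adjusted p = 0.0362). The 10 fibroblast markers and 7 amino acid stress genes all moved in the same direction as the members, with medians of 1.87 and 0.96, as did 7 of 8 pluripotency markers (median 0.60). Endoderm markers moved that way in 6 and the other way in 3 of 11. Their part was not tested.

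**Figure D4:**
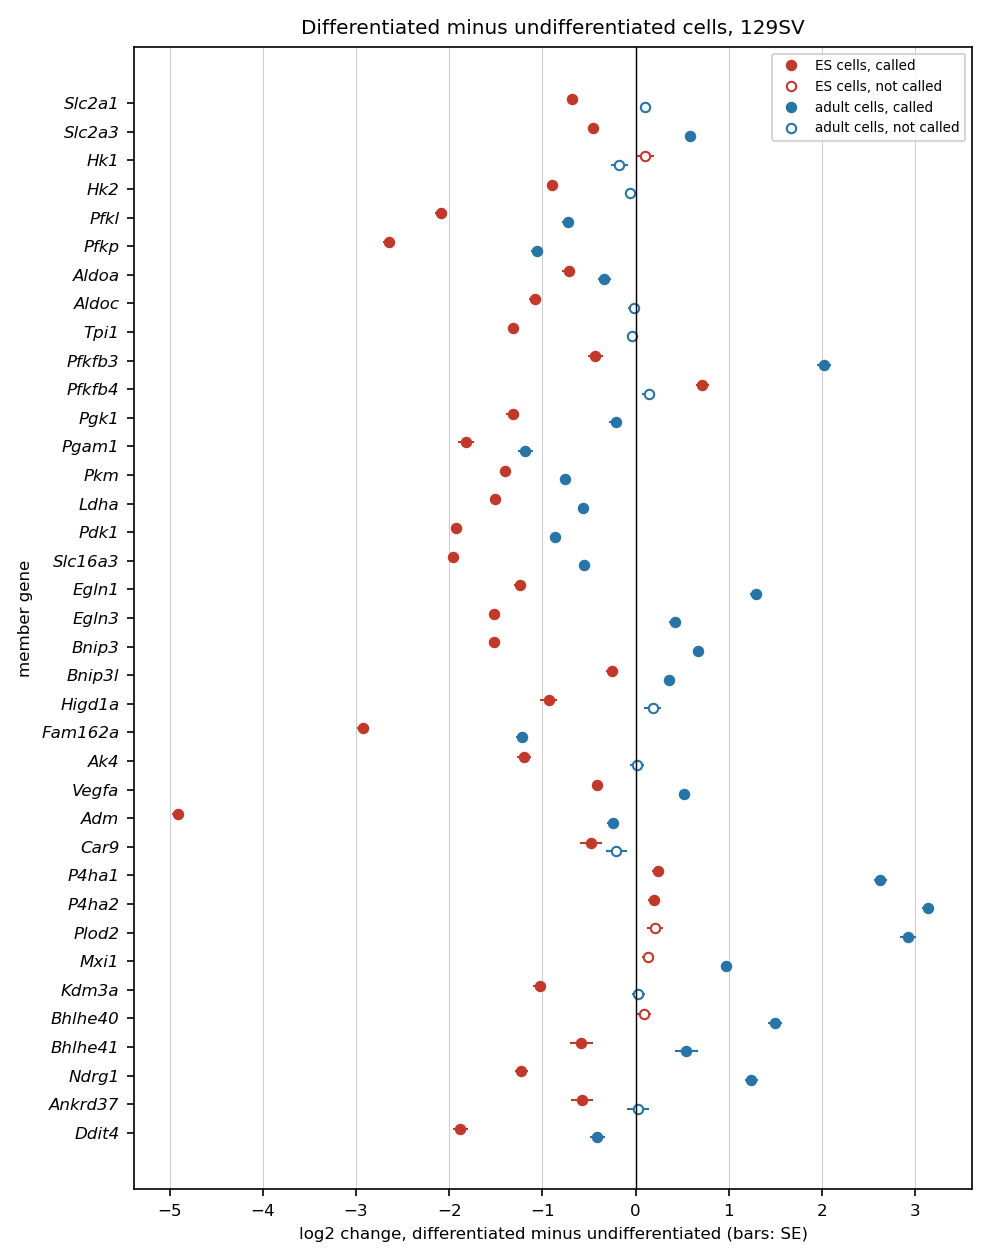
Differentiated minus undifferentiated log2 change of each member in ES (red) and adult (blue) 129SV cells; bars are SE, and open points did not pass an adjusted p under 0.05. ES points run from -4.91 for Adm to 0.72 for Pfkfb4, and adult points from -1.22 for Fam162a to 3.14 for P4ha2.

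After differentiation the adult cells had somewhat higher levels of much of the set than the ES cells. Of 37 members, 21 were higher and 5 lower (19.4% and 12.8% of all genes), with a median of 0.19 (all genes -0.03). Adm was 2.10-fold higher (1.07 ± 0.06, adjusted p = 1.82e-09), Slc16a3 1.87-fold, Pfkp 1.84-fold, P4ha2 1.72-fold, Egln1 1.69-fold, Ak4 1.66-fold, Tpi1 (triose phosphate isomerase) 1.57-fold and Pfkl 1.41-fold. Pgk1 was higher by 0.27, Ldha by 0.26, Hk2 by 0.25, Egln3 by 0.19 (adjusted p = 0.0240), Bnip3 by 0.17 (adjusted p = 0.0157) and Pdk1 by 0.16 (adjusted p = 0.0275). Bhlhe41 was lower by 0.97, Ndrg1 by 0.58, Slc2a1 by 0.39 and Vegfa by 0.26, and Car9 (-0.11) and Ddit4 (-0.03) were not called. Same-numbered arrays of these groups deviated together, with correlations of 0.14 to 0.44. Fitted on these 6 arrays alone, 11 members were higher, and 12 with the replicate number as a block, a fit chosen after the data were seen. Of all 19938 genes, 2361 were higher without and 2647 with the block. In both fits Pgk1, Ldha, Hk2, Vegfa, Egln3, Bnip3 and Pdk1 lost their calls, with adjusted p-values of 0.0504 to 0.217. Pdk1, Bnip3 and Egln3 also lost theirs with quantile normalisation (log2 differences of 0.093, 0.11 and 0.11). Pdk1 did so with centred arrays (log2 difference 0.15), and Bnip3 with the mean of all probe sets (0.15) or the dimmest (0.13). Without the third differentiated ES array, 20 members were higher and 8 lower. The call of Bnip3 was lost without differentiated adult replicate 3 (0.14), and that of Egln3 without differentiated ES replicate 1 or 2 (0.18 and 0.15) or differentiated adult replicate 1 (0.16). That of Pdk1 was lost without differentiated ES replicate 1 or 3 (0.14 each) or differentiated adult replicate 1 or 2 (0.14 and 0.16). Fibroblast markers were higher in 9 of 10 (median 0.77) and pluripotency markers in 7 of 8 (median 0.56), and their part was not tested.

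The regulators of the pathway moved in both directions in most comparisons, but mostly rose on differentiation of adult cells. Of 15 measured of 17 listed, 5 were higher and 8 lower in adult than in ES 129SV cells (23.0% and 23.1% of all genes). In ES Stra8 against ES 129SV cells, 4 were higher and 5 lower (21.3% and 20.0% of all genes). On differentiation of adult cells 10 were higher and 1 lower (27.5% and 32.2% of all genes). On that of ES cells 8 were higher and 5 lower (27.9% and 27.3%). Hif1a, the alpha subunit induced in most cells, had group means of 11.08 in ES 129SV, 10.42 in adult 129SV, 11.21 in ES Stra8 and 11.39 in adult Stra8 cells. It was lower in adult than in ES 129SV cells by 0.66 ± 0.07 (adjusted p = 3.49e-07) and differed by 0.12 (adjusted p = 0.158) between the ES groups. Epas1 (HIF2 alpha) rose on differentiation, by 2.32 ± 0.06 in ES and 2.01 ± 0.06 in adult cells (adjusted p = 2.73e-15 and 2.33e-14), and was lower in ES Stra8 than in ES 129SV cells by 0.79. Vhl was highest in ES 129SV cells, at a mean of 8.69, and lower by 0.92 in adult 129SV and by 0.62 in ES Stra8 cells. Arnt group means stayed between 10.49 and 10.96. These are transcript levels, and HIF is controlled largely through protein stability, which was not measured.

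A further list of 37 measured hypoxia-induced genes, none of them members, was mostly lower outside ES 129SV cells as well. It had 29 lower and 2 higher genes in adult against ES 129SV cells (median -1.09), beside 23.1% and 23.0% of all genes. The extremes were Nos2, an inducible nitric oxide synthase, at -3.22 ± 0.08 and Jmjd6 at 0.47. ES Stra8 against ES 129SV cells gave 27 lower and 2 higher (median -1.01), beside 20.0% and 21.3% of all genes. On differentiation of ES cells 26 were lower and 4 higher (median -0.75), beside 27.3% and 27.9%. On that of adult cells 20 were higher and 12 lower (median 0.26), beside 27.5% and 32.2%. The 23 measured other glycolysis genes, which hold tissue-specific and side-branch enzymes, showed no such shift. In adult against ES 129SV cells 5 were higher and 5 lower (median -0.02), near the 23.0% and 23.1% of all genes. Pgm1, which links glycogen to glycolysis, was their lowest at -1.98 ± 0.06, and Tigar their highest at 0.63. On differentiation, Hkdc1, a further hexokinase, rose by 3.15 in ES and 4.12 in adult cells. Of 16 genes of pyruvate dehydrogenase and gluconeogenesis, 2 were higher and 9 lower in adult against ES 129SV cells (median -0.23), beside these same shares. Their extremes there were Pdp2 at 0.58 and Pck2 at -1.004, and Pdk2, a sister kinase of Pdk1, rose by 2.33 on differentiation of ES and 1.99 of adult cells. These lists, too, were drawn up with earlier results of the arrays known.

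Fibroblast markers and members were set side by side on each array. The ES 129SV arrays had both the highest summed fibroblast signal and the highest centred median of the members, 0.82 to 0.88 above the mean of the 18 arrays. The order then differed. Adult Stra8 arrays had a higher summed fibroblast signal than adult 129SV arrays, and their member median was -0.28 to -0.22 against -0.05 to -0.02. Of the 10 fibroblast markers, 5 were called higher and 1 lower in adult Stra8 than in adult 129SV cells. The higher sum rests mostly on the bright marker Dcn, with means of 12.49 in adult Stra8 and 10.15 in adult 129SV cells. Col1a1 (12.34 against 12.63) and Col1a2 (11.49 against 11.54), also bright, had no higher means. Differentiated ES arrays had the lowest fibroblast signal and member medians of -0.11 to -0.06, above those of both Stra8 groups. For the 16 glycolytic members alone, the medians of the groups other than adult Stra8 followed the order of the summed fibroblast signal. They ran from -0.40 to -0.27 in differentiated ES to 0.78 to 0.84 in ES 129SV cells. By the centred median of the fibroblast markers this order broke. ES Stra8 arrays (-0.155 to -0.11) then lay above differentiated adult arrays (-0.35 to -0.26). Their glycolytic medians were -0.21 to -0.20 and -0.09 to -0.02. As the points are 6 groups rather than 18 independent samples, no correlation is given. The part of fibroblasts in the member levels was not tested.

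**Figure D5:**
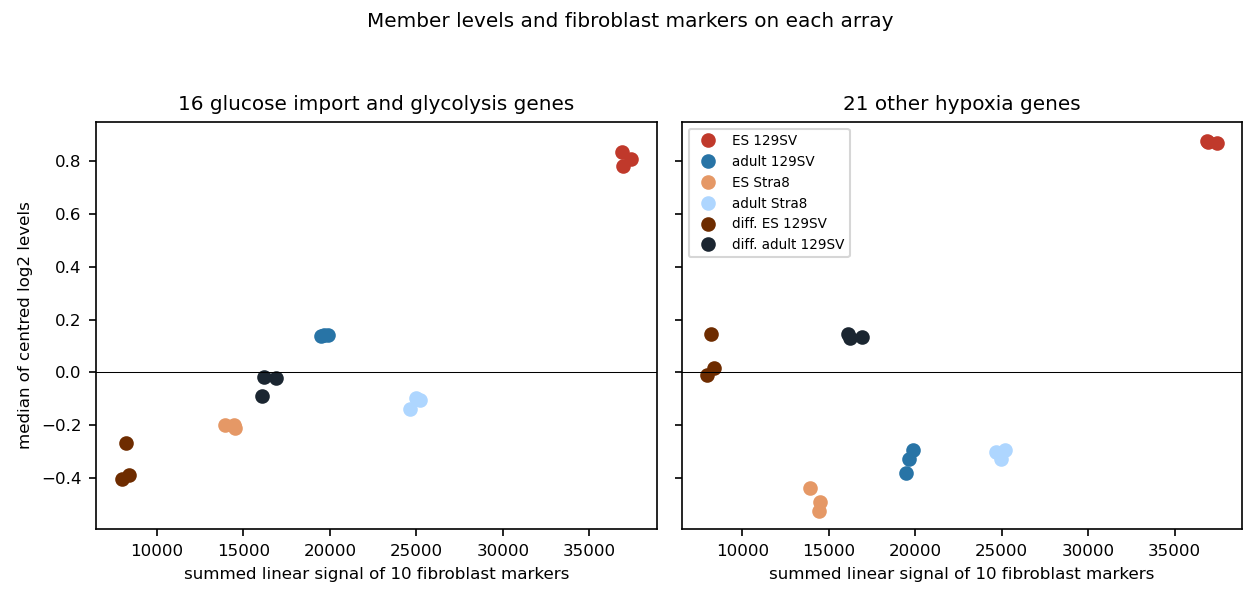
Median centred log2 level of the 16 glycolytic members (left) and the 21 other members (right) on each array, against the summed linear signal of 10 fibroblast markers. The 3 ES 129SV arrays lie at the upper right in both panels. On the left the other groups rise with this summed signal except adult Stra8. On the right differentiated ES arrays, with the lowest summed signal, lie above adult 129SV and both Stra8 groups.

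Probe sets mattered for Hk1 (hexokinase 1). The rule took a probe set with a mean of 13.16 whose group means stayed between 13.03 and 13.25. The other probe set of Hk1 alone, with a mean of 9.89, read 11.04, 11.16 and 11.08 in ES 129SV cells, 9.53, 9.56 and 9.60 in adult 129SV cells and 9.34, 9.19 and 9.14 in ES Stra8 cells. It was lower by 1.53 in adult than in ES 129SV cells and by 1.87 in ES Stra8 than in ES 129SV cells, the direction of most members. A further 16 probe sets were annotated to Hk1 together with Rpl17, a ribosomal protein gene, and were not used. Taking the probe set with the lowest mean for each gene, a choice made after the values were seen, gave 36 members lower in adult than in ES 129SV cells. In none of the 9 comparisons were probe sets of 1 member called in opposite directions.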

How the data were processed

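RNA of 18 samples was measured on 1-colour arrays, from 300 ng of total RNA each per the labels' protocols. The deposited values are log2 signals per probe set, made by the authors with RMA and Affymetrix Expression Console according to the submitters' processing notes. Versions, the genome build and whether all arrays were normalised together are not given in the sources used here. Values were used as deposited. Of 35556 probe sets, 21789 carried 1 symbol, 1621 several and 12146 none; symbols came from GEO's platform annotation, and all 37 members matched a RefSeq gene. With 1 probe set per gene, the 1 with the highest mean, 19938 genes were fitted in R 4.3.3 with limma 3.58.1 (lmFit, contrasts, eBayes), with a mean per group over all 18 arrays and no filter. A gene was called at a Benjamini-Hochberg adjusted p under 0.05 over all genes, and the procedure was tested on simulated data. Differences between effects were tested as contrasts of contrasts. Errors are SE of the fit. Motifs were searched with Python 3.11.15.

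The members and lists were chosen with earlier results of these data known. For each comparison the text names the 10 called members with the largest change and, called or not, Slc2a1, Hk2, Pgk1, Ldha, Pdk1, Bnip3, Egln3, Vegfa, Car9 and Ddit4. Of the lists it names Hif1a, Epas1, Arnt, Vhl and the largest called changes, and other members only to complete a group. Alternatives were the replicate number as a block, median centring, quantile normalisation, a fit of only the groups compared, leaving out genes under 6 in every group, other probe set choices, array weights, a variance trend and leaving out each array. Replicate numbers were taken to pair only the differentiated groups, where all 3 correlations of same-numbered arrays exceeded 0.1, which rests on the data and not on the labels. The labels call the replicates biological without naming cultures or animals, so p-values measure the spread between these samples, which may be technical, and 3 arrays per group limit the precision.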

Additional observations from a re-analysis of the deposited data

Results flagged for a closer look

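These members are listed because a change differed between backgrounds or between cell types when the difference itself was tested in limma, with adjusted p-values of at most 6.40e-06. The tests share the ES 129SV arrays, so they are not independent of each other. For adult minus ES cells, the Stra8 change exceeded the 129SV change by 4.51 in Adm, 3.20 in Pfkfb3, 3.07 in Ndrg1, 2.89 in P4ha2 and 2.80 in P4ha1. The excess was 2.66 in Plod2, 2.65 in Bhlhe41, 2.53 in Bnip3, 2.24 in Egln3, 2.09 in Fam162a and 1.75 in Ddit4. It was 1.48 in Vegfa, 1.37 in Ldha, 1.36 in Slc2a1, 1.13 in Pgk1, 0.99 in Hk2 and 0.57 in Pdk1.

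For differentiated minus undifferentiated 129SV cells, the adult change exceeded the ES change by 4.67 in Adm, 2.94 in P4ha2, 2.71 in Plod2, 2.53 in Egln1, 2.47 in Ndrg1 and 2.45 in Pfkfb3. The excess was 2.38 in P4ha1, 2.19 in Bnip3, 1.94 in Egln3, 1.71 in Fam162a and 1.47 in Ddit4. It was 1.11 in Pgk1, 1.07 in Pdk1, 0.95 in Ldha, 0.94 in Vegfa, 0.84 in Hk2 and 0.79 in Slc2a1. Ldha, Adm, Bnip3, Egln3 and Pfkfb3, among others, lay on opposite sides in the backgrounds. Every adult 129SV array lay below and every adult Stra8 array above the ES arrays of its own background. Taken singly, 35 of 37 members were apart and lower in 129SV cells, and 23 were apart and higher in Stra8 cells. Of all 19938 genes, 5221 and 4371 were.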

How the results depend on the processing

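The counts of members lower in adult 129SV, ES Stra8 and differentiated ES cells stayed within 1.5 times under every alternative run. Of 2844 alternative values for 163 single-gene results, 2787 had the same direction and side of the threshold, 41 lost the call, 12 gained it and 4 turned sign. Quantile normalisation gave medians of -0.82 and 0.23 for adult minus ES cells in 129SV and Stra8, 0.11 for differentiated adult minus ES cells, -0.012 for differentiation of adult cells, -0.061 between adult backgrounds and 1.12 for the difference between backgrounds. It left 0 members higher in adult 129SV and in ES Stra8 cells and 5 higher in differentiated ES cells. Of all 19938 genes, 4585, 3842 and 4839 were higher there. Centring gave medians of -0.85 (adult 129SV), -0.999 (differentiated ES), -1.17 (ES Stra8), 1.04 (difference between backgrounds) and 1.08 (difference in differentiation). The mean of all probe sets gave 0.23 (adult Stra8), -1.05, -1.25 and 1.14, and the lowest probe set, added after the data were seen, 0.23, -1.08, -1.40, 1.297 and 1.15, in the same order. Array weights gave 4 members lower in adult Stra8 cells, 8 lower in differentiated adult than ES cells, 7 higher in differentiated ES cells and 2 lower in the difference in differentiation, where a variance trend also gave 2. Of all 19938 genes, array weights gave 4690, 3717, 6371 and 4869 in the same order, and the variance trend 4300. Without these alternatives the all-gene counts were 3003, 2545, 5553 and 4281. Fitting only the groups compared gave 11 higher in differentiated adult than ES cells and 1 higher in differentiated ES cells. Of all 19938 genes it gave 2361 and 4880.

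Only between the differentiated groups did 3 of 3 correlations of same-numbered arrays exceed 0.1. Adult Stra8 with differentiated ES arrays came next, with 2 of 3 over 0.1 (range 0.087 to 0.26). Over all groups 10 of 45 exceeded 0.1 (range -0.22 to 0.44), and 10 of 18 arrays correlated best with their own number. For the differentiated groups, a replicate block in a fit of their 6 arrays, added after the data were seen, gave 12 members higher. It gave 2647 of all 19938 genes higher. In the fit of all arrays the replicate block left 0 members higher in ES Stra8 cells against 1 without it, and moved no other count of members by over 1.5 times. Of all genes, 4239 were higher in ES Stra8 cells with the block and 4255 without it. Leaving out 1 array gave, for adult minus ES 129SV cells, 0 to 1 higher, 34 to 35 lower and medians of -0.89 to -0.84. It gave 5 to 8 lower and medians of 0.18 to 0.22 for differentiated adult minus ES cells, and medians of -1.08 to -0.98 for differentiation of ES cells. It gave 0 higher and medians of -1.25 to -1.20 for ES Stra8 cells, medians of 1.01 to 1.13 for the difference between backgrounds, and 1 to 2 lower and medians of 1.07 to 1.17 for that in differentiation. The sign turned for Car9 in adult minus ES Stra8 cells, where leaving out 1 array gave -0.067 to 0.058. It also turned for Ddit4 in differentiated adult minus ES cells, at 0.013 with array weights and -0.099 to 0.055 with 1 array left out. Neither was called, and the cause was not tested.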
